A study of Homo sapiens with 16 samples.

Results

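Transcript levels were followed for 10 genes of the heat shock chaperone system: HSF1, HSPA1A, HSPA1B, HSPA8, HSPH1, HSP90AA1, HSP90AB1, HSPB1, HSPD1 and BAG3. They were taken by gene symbol from both deposited count tables, as 10 of 58735 genes, and all 10 passed the filter on low counts in every comparison. The samples were SUM159PT cells given a guide RNA against YES1 (sgYES1), SUM159PT cells given a non-targeting guide (sgNTS), MDA-MB-231 cells given sgYES1 and MDA-MB-231 cells given sgNTS, with 4 libraries in each group and 16 in all. All groups were lipofected with Lipofectamine, carried the genotype label WT and were collected 48 h after transfection. Both are established human triple-negative breast cancer lines, and YES1 is a tyrosine kinase of the Src family. Any protein supplied with the guides was not given in the sources used here, and untransfected cells were not analysed here. The submitters call the replicates technical and nothing assigns them to separate cultures, so every p-value below measures only the spread between these samples. The lines were grown in different media (RPMI for MDA-MB-231, Ham's F12 for SUM159PT) and deposited in separate tables, so line, medium and table cannot be told apart.

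Heat shock proteins are chaperones that bind unfolded or partly folded proteins. HSF1, a transcription factor held inactive by chaperones in unstressed cells, binds repeats of the unit nGAAn, called heat shock elements, when unfolded proteins accumulate, and raises the transcription of chaperone genes. HSP70 proteins work in cycles of ATP binding and hydrolysis driven by J-domain proteins and by nucleotide exchange factors, and HSP90 proteins complete the folding of many client kinases, among them Src-family kinases. Of the 10 genes, HSPA1A, HSPA1B and HSPA8 encode HSP70 proteins, HSPH1 encodes the larger HSP110 of the same superfamily, and HSP90AA1 and HSP90AB1 encode cytosolic HSP90 proteins. HSPB1 encodes a small heat shock protein, HSPD1 the chaperonin of mitochondria and BAG3 a co-chaperone of HSP70, so the group reaches beyond the HSP70 and HSP90 families themselves.

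The promoter stretch with the longest run of heat shock element units is shown for each gene that had one, as a description of the letters that HSF1 is known to bind; a link between these runs and the values below was not tested. Sequences are those of RefSeq on GRCh38.p14, from 250 bases before to 50 after the annotated start, and 13 such promoters were found for 9 of the 10 genes (none for HSF1). The searched letters were GAANNTTC or TTCNNGAA (each its own reverse complement), the longer GAANNTTCNNGAA or TTCNNGAANNTTC, and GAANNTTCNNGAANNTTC or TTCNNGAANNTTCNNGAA, so both strands were covered and the shorter matches lie inside the longer ones. Capitals mark the run of matched units, printed 5′ to 3′ on the strand of the gene.
HSPA1A: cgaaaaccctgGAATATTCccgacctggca
HSPA1B: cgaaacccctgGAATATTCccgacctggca
HSPA8: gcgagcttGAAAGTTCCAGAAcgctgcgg
HSP90AA1: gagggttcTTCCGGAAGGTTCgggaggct
HSP90AB1: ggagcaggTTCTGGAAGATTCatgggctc
HSPB1: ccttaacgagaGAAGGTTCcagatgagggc
HSPD1: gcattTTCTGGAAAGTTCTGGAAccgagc

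These windows lie at chr6:31815426-31815455 (plus strand) for HSPA1A, chr6:31827622-31827651 (plus) for HSPA1B, chr11:123062346-123062374 (minus) for HSPA8, chr14:102087112-102087140 (minus) for HSP90AA1, chr6:44247770-44247798 (plus) for HSP90AB1, chr7:76302480-76302509 (plus) for HSPB1 and chr2:197500062-197500090 (minus) for HSPD1. The 8-letter element was found in 7 of the 13 promoters, of 7 genes, and in 13.5% of all 35116 promoters, or 16.2% of all 27305 genes. The 13-letter element was found in 4 of the 13 promoters, of 4 genes (HSPA8, HSP90AA1, HSP90AB1 and HSPD1), in 0.49% of all promoters and in 0.608% of all genes. The 18-letter element was found in HSPD1, in 0.0342% of all promoters and in 0.0439% of all genes. None of these letters were matched in the windows of HSPH1 and BAG3. The runs of HSPA1A and HSPA1B began at positions -106 and -105 from the start, in windows of nearly the same letters, and the shown run of HSPA8 at -230. HSPA8 and HSP90AB1 each hold 2 separate 13-letter runs, of which the one farther upstream is shown. A match is a description of letters only.

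Depth ranged from 14.4 to 20.9 (in units of 1e6 gene counts) in SUM159PT libraries and from 17.2 to 25.1 in those of MDA-MB-231. YES1 mRNA, the check of the guide, averaged 39.7 ± 0.754 CPM (counts per 1e6 counts, scaled by edgeR's TMM factors) in SUM159PT sgYES1 and 94.2 ± 3.21 in SUM159PT sgNTS (SD, n = 4 each), and 42.7 ± 1.10 CPM in MDA-MB-231 sgYES1 and 108 ± 3.07 in MDA-MB-231 sgNTS. In these cells, labelled triple-negative, ESR1 did not exceed 0.428 CPM and PGR was at 0 in all 16 libraries, while ERBB2 stood at 91.6 to 115.8 CPM. Leukocyte markers, 6 genes of which CD3E was at 0 throughout, summed to 0.937 to 1.72 CPM in SUM159PT sgYES1 and 0.143 to 0.608 CPM in SUM159PT sgNTS, and to 2.85 to 3.53 CPM in MDA-MB-231 sgYES1 and 1.15 to 1.98 CPM in MDA-MB-231 sgNTS. Not all of them moved alike, as LYZ averaged 0.0924 CPM in MDA-MB-231 sgYES1 and 0.464 CPM in MDA-MB-231 sgNTS. In MDA-MB-231, 5 genes of the tumour line itself (KRT8, KRT18, VIM, EPCAM and CDH1) summed to 1712 to 1839 CPM with sgYES1 and 2136 to 2216 CPM with sgNTS. There 4 endothelial markers summed to 7.30 to 9.59 CPM with sgYES1 and 4.48 to 5.62 CPM with sgNTS, and 4 fibroblast markers to 31.1 to 32.7 and 23.5 to 27.9 CPM. In SUM159PT the sums of these 3 lists overlapped between guides, but some genes within them did not, and they moved in opposite directions. KRT8 was higher there with sgYES1 (812 to 957 CPM, against 718 to 778 CPM with sgNTS). VIM was lower with sgYES1 (1435 to 1485 CPM, against 1658 to 1720 CPM with sgNTS). The fibroblast marker DCN was higher, averaging 4.501 CPM with sgYES1 and 1.248 CPM with sgNTS. In SUM159PT 2 erythroid genes summed to 0.789 to 5.92 CPM with sgYES1 and 0.428 to 0.717 CPM with sgNTS, with HBB at 0 in all libraries. The part of these markers in the results below was not tested. Of the libraries, MDA-MB-231 sgNTS replicate 4 had the lowest share of mitochondrial transcripts (2.34%, against 3.42% to 5.15% in the other libraries), and SUM159PT sgNTS replicate 2 was the highest of its group in 8 of the 10 genes, all but HSF1 and HSPB1.

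In SUM159PT, the HSP70 genes were far higher with sgYES1 than with sgNTS: HSPA1B 5.44-fold, HSPA1A 5.01-fold and HSPA8 2.49-fold, with smaller rises of HSPH1 (1.32-fold) and BAG3 (1.24-fold). In all, 7 of the 10 genes rose, 0 fell and 3 did not pass the test, where 19.6% of all 14479 tested genes rose and 19.7% fell (39.4% called in either direction; adjusted p under 0.05 by edgeR's quasi-likelihood test). In 6 of the 10 genes every sgYES1 library was above every sgNTS library, against 16.8% of all tested genes. The median log2 fold change of the 10 genes was 0.25, against -0.01 over all tested genes. Without SUM159PT sgNTS replicate 2, 8 of the 10 rose and 0 fell. With HSPA1A and HSPA1B, which share most of their sequence, summed as 1 feature, 6 rose. In bulk RNA a change in the share of cells of a type and a change in the RNA per cell cannot be told apart.

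In MDA-MB-231, HSPA1A and HSPA1B also rose, by 1.21-fold and 1.20-fold, while HSP90AA1 was 1.27-fold lower and HSPA8 1.12-fold lower with sgYES1 than with sgNTS. HSPD1 and BAG3 were lower as well, so that 2 of the 10 genes rose, 4 fell and 4 did not pass. Of all 15427 tested genes 20.8% rose and 22.1% fell, 42.8% in all, so the count of rises was near the background. These calls were less stable than those in SUM159PT: with all 16 libraries in 1 fit 0 rose and 2 fell (HSP90AA1 and HSPD1), with library totals as the only scaling 2 fell, and without MDA-MB-231 sgNTS replicate 4, 2 rose and 3 fell, BAG3 losing its call. The fit of all 16 uses 1 estimate of each gene's spread for both lines, and its filter (16640 genes tested) and scaling differ too. The part of each in the lost calls was not tested. HSPA8 had an SD of 241 CPM in SUM159PT sgNTS, against 33.4 CPM in MDA-MB-231 sgNTS and 50.2 CPM in MDA-MB-231 sgYES1. In that fit HSPA1A, HSPA1B and HSPA8 had log2 fold changes of 0.28, 0.26 and -0.16, against 0.28, 0.26 and -0.17 in MDA-MB-231 alone. These 3 genes kept their calls whichever single library was left out. Groups did not overlap in 2 genes with sgYES1 higher (19.2% of all genes) and in 4 with sgYES1 lower (20% of all genes). The median log2 fold change of the 10 genes was -0.04, against 0.01 over all genes.

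**Figure D1:**
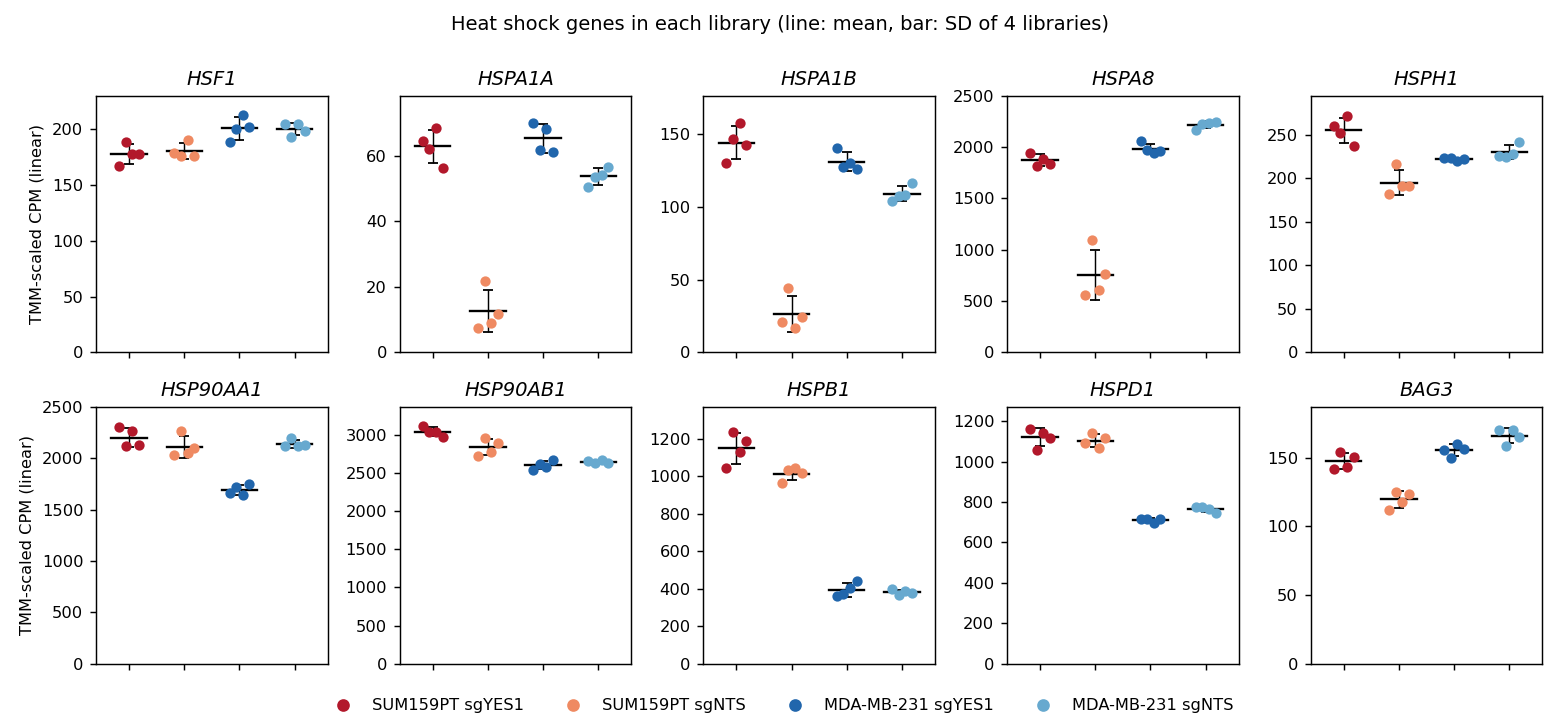
Level of each of the 10 genes in every library (TMM-scaled CPM on a linear axis that starts at 0; lines are means and bars SD of 4 libraries) for SUM159PT sgYES1, SUM159PT sgNTS, MDA-MB-231 sgYES1 and MDA-MB-231 sgNTS, left to right. SUM159PT sgNTS sits far below the other 3 groups in HSPA1A, HSPA1B and HSPA8, and HSPB1 and HSPD1 split by line.

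HSF1 (ENSG00000185122, chromosome 8, 144291591 to 144314722, hg38) is the regulator, and its mRNA was not called higher or lower with sgYES1 in either line. It stood at 167, 189, 177 and 177 CPM in SUM159PT sgYES1, against 179, 175, 190.3 and 176 CPM in SUM159PT sgNTS. The MDA-MB-231 values were 188, 199.5, 213 and 201 CPM with sgYES1, against 205, 193, 204 and 199 CPM with sgNTS. The groups overlapped in both lines. The log2 fold change was -0.01 (95% interval -0.11 to 0.08, adjusted p = 0.836) in SUM159PT and lay between -0.09 and 0.09 in MDA-MB-231 (adjusted p = 0.998), so changes larger than these bounds were outside the intervals. HSF1 is activated mainly at the protein level, which these libraries do not measure. The gene overlaps DGAT1 on the opposite strand, whose own count reached 33.8% of that of HSF1, and the use of strand in counting was not given in the sources used here.

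HSPA1A (ENSG00000204389, chromosome 6, 31815464 to 31817946) and HSPA1B (ENSG00000204388, chromosome 6, 31827735 to 31830255) encode the heat-inducible HSP70 and share most of their sequence. Of the 100-base words of HSPA1A transcripts 67.3% also occur in HSPA1B, so reads can be assigned to either gene, and each value is uncertain by itself. HSPA1A stood at 64.5, 61.9, 68.5 and 56.4 CPM in SUM159PT sgYES1, against 7.37, 21.7, 9.07 and 11.8 CPM in SUM159PT sgNTS. HSPA1B stood at 130.2, 147, 158 and 142 CPM in SUM159PT sgYES1, against 20.6, 44.2, 17.1 and 24.1 CPM in SUM159PT sgNTS. The groups were far apart in both genes, and sgNTS replicate 2 was the highest control in each. The log2 fold changes were 2.33 (SE 0.17, adjusted p = 1.4e-09) for HSPA1A and 2.44 (SE 0.16, adjusted p = 1.58e-10) for HSPA1B. Without sgNTS replicate 2 they were 2.72 and 2.80.

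In MDA-MB-231, HSPA1A stood at 70.0, 61.6, 68.3 and 61.2 CPM with sgYES1, against 50.5, 53.6, 54.3 and 56.7 CPM with sgNTS. HSPA1B stood at 140.4, 128, 131 and 126 CPM with sgYES1, against 104, 108, 108 and 117 CPM with sgNTS. Again every sgYES1 library lay above every control, by a small gap. The log2 fold changes were 0.28 (SE 0.05, adjusted p = 0.000946) and 0.26 (SE 0.04, adjusted p = 0.000337). Both calls were lost when all 16 libraries were fitted together (adjusted p = 0.0969 and 0.109). Without MDA-MB-231 sgNTS replicate 4 the log2 fold changes were 0.31 and 0.29. The sum of both genes, which does not depend on how counted reads were split between them, was 194.7 to 227 CPM in SUM159PT sgYES1, 26.2 to 65.9 CPM in SUM159PT sgNTS, 187 to 210.5 CPM in MDA-MB-231 sgYES1 and 155 to 173 CPM in MDA-MB-231 sgNTS. With sgYES1 the lines thus overlapped in the sum, while with sgNTS they did not. HSPA1B counts were 1.89 to 2.80 times those of HSPA1A over the 16 libraries.

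HSPA8 (ENSG00000109971, chromosome 11, 123057489 to 123063230, minus strand) encodes HSC70, the constitutive HSP70 that folds new proteins and uncoats clathrin. It stood at 1945, 1819.9, 1886 and 1837 CPM in SUM159PT sgYES1, against 561, 1093, 606 and 759 CPM in SUM159PT sgNTS. The MDA-MB-231 values were 2056, 1967, 1947 and 1958 CPM with sgYES1, against 2169.8, 2222, 2231 and 2247 CPM with sgNTS. The groups were separate in both lines, in opposite directions, and the 4 SUM159PT sgNTS libraries were the lowest of all 16. The log2 fold change was 1.32 (SE 0.12, adjusted p = 3.9e-08) in SUM159PT and 1.55 there without sgNTS replicate 2. In MDA-MB-231 it was -0.17 (SE 0.03, adjusted p = 0.000702), a call that ended when all 16 libraries were fitted together (adjusted p = 0.272), and -0.16 without sgNTS replicate 4. Its 17 pseudogenes in the tables took at most 0.163% of its count.

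HSPH1 (ENSG00000120694, chromosome 13, 31134974 to 31162388, minus strand), whose product HSP110 exchanges the nucleotide of HSP70 and helps to dissolve aggregates, rose in SUM159PT. It stood at 261, 252, 271 and 238 CPM in SUM159PT sgYES1, against 182, 216, 192 and 191 CPM in SUM159PT sgNTS, a log2 fold change of 0.40 (SE 0.05, adjusted p = 3.37e-06) that was 0.45 without sgNTS replicate 2. MDA-MB-231 cells had 223, 224, 220.0 and 222 CPM with sgYES1, against 226, 225, 228 and 242 CPM with sgNTS. There the groups did not overlap but lay close, and the log2 fold change of -0.05 (95% interval -0.13 to 0.02, adjusted p = 0.224) did not pass. Without MDA-MB-231 sgNTS replicate 4, the highest of the controls, it was -0.03 (adjusted p = 0.562).

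BAG3 (ENSG00000151929, chromosome 10, 119651370 to 119677819) encodes a co-chaperone that links HSP70 to the autophagy of damaged proteins. It stood at 142, 154, 143 and 150.3 CPM in SUM159PT sgYES1, against 112, 125, 118 and 123 CPM in SUM159PT sgNTS, and the groups did not overlap. The log2 fold change was 0.31 (SE 0.05, adjusted p = 1.8e-05), and 0.33 without sgNTS replicate 2. In MDA-MB-231 it stood at 156, 150.0, 160.0 and 156 CPM with sgYES1, against 170.3, 158, 170.3 and 165 CPM with sgNTS, and the groups overlapped. That log2 fold change was -0.10 (SE 0.04, adjusted p = 0.0463), and the call was lost when replicate 1, 3 or 4 of sgNTS, or replicate 1, 2 or 4 of sgYES1, was left out (0.063 to 0.122), with DESeq2 (0.057) and with library totals as the only scaling (0.279).

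HSP90AA1 (ENSG00000080824, chromosome 14, 102080738 to 102139699, minus strand) encodes the stress-inducible HSP90 alpha and was lower with sgYES1 in MDA-MB-231. It stood at 1663, 1724, 1644 and 1751 CPM in MDA-MB-231 sgYES1, against 2125, 2201, 2118 and 2132 CPM in MDA-MB-231 sgNTS, with no overlap. The log2 fold change was -0.34 (SE 0.03, adjusted p = 1.42e-06), and -0.34 too without sgNTS replicate 4. In SUM159PT it stood at 2307, 2120.1, 2263 and 2128 CPM with sgYES1, against 2033, 2269, 2055 and 2103 CPM with sgNTS, and the groups overlapped. That log2 fold change was 0.07 (95% interval -0.01 to 0.15, adjusted p = 0.178), and without sgNTS replicate 2, the highest control, it was 0.10 and passed (adjusted p = 0.0293).

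HSP90AB1 (ENSG00000096384, chromosome 6, 44246166 to 44253888) encodes the constitutive HSP90 beta and had the highest level of the 10 genes. It stood at 3122, 3039, 3040.5 and 2982 CPM in SUM159PT sgYES1, against 2727, 2966, 2782 and 2896 CPM in SUM159PT sgNTS, a log2 fold change of 0.11 (SE 0.03, adjusted p = 0.0123). The groups did not overlap, though without SUM159PT sgNTS replicate 1 the call was lost (adjusted p = 0.0536), while without replicate 2 the value was 0.13. In MDA-MB-231 it stood at 2546, 2623, 2579 and 2674 CPM with sgYES1, against 2658, 2638, 2672 and 2632 CPM with sgNTS. These groups overlapped, and the log2 fold change of -0.03 (95% interval -0.09 to 0.04, adjusted p = 0.487) was positive (0.02) when library totals were the only scaling. No 50-base word of HSP90AA1 transcripts occurs in HSP90AB1, and pseudogenes reached 0.549% and 0.270% of their counts.

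HSPB1 (ENSG00000106211, chromosome 7, 76302544 to 76304295) encodes HSP27, which holds unfolded proteins without ATP and binds actin. It stood at 1041, 1236, 1127 and 1189 CPM in SUM159PT sgYES1, against 963, 1033, 1042 and 1017 CPM in SUM159PT sgNTS. The lowest sgYES1 library lay within the controls, and the log2 fold change of 0.19 (SE 0.04, adjusted p = 0.00156) passed. In MDA-MB-231 it stood at 358, 371, 405 and 439 CPM with sgYES1, against 396, 368, 387 and 374 CPM with sgNTS, and the log2 fold change was 0.04 (95% interval -0.07 to 0.16, adjusted p = 0.555). The guide groups overlapped in both lines, and all 8 SUM159PT libraries lay above all 8 of MDA-MB-231.

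HSPD1 (ENSG00000144381, chromosome 2, 197486581 to 197516737, minus strand) encodes HSP60, which folds proteins imported into mitochondria. It stood at 1160.2, 1059.6, 1144 and 1119 CPM in SUM159PT sgYES1, against 1091, 1141, 1066 and 1119 CPM in SUM159PT sgNTS, a log2 fold change of 0.03 (95% interval -0.05 to 0.11, adjusted p = 0.557). MDA-MB-231 cells had 716, 719, 695 and 718 CPM with sgYES1, against 777, 777, 765 and 748 CPM with sgNTS. Here the groups did not overlap, and the log2 fold change was -0.11 (SE 0.03, adjusted p = 0.00898), not called with library totals as the only scaling (-0.06, adjusted p = 0.0953). HSPE1, its partner on the opposite strand, had counts of up to 8.33% of those of HSPD1, and 17 pseudogenes took up to 1.45%.

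**Figure D2:**
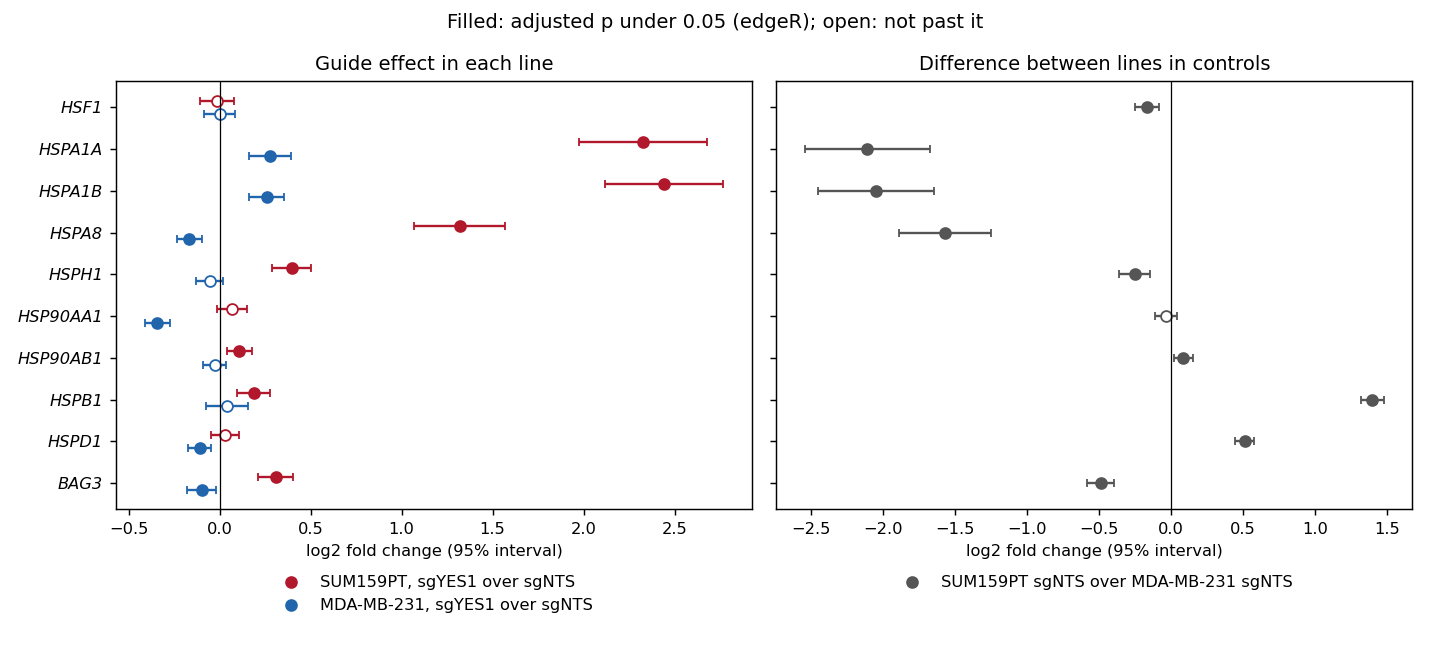
Log2 fold changes of the 10 genes with 95% intervals: sgYES1 over sgNTS in SUM159PT (red) and MDA-MB-231 (blue) on the left, and SUM159PT sgNTS over MDA-MB-231 sgNTS (grey) on the right; filled points passed an adjusted p of 0.05. HSPA1A, HSPA1B and HSPA8 reach 1.32 to 2.44 in SUM159PT and -0.17 to 0.28 in MDA-MB-231, and between controls they lie at -2.11 to -1.57.

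Whether the guide acted alike in both lines was tested as the interaction over all 16 libraries. The log2 fold change was higher in SUM159PT than in MDA-MB-231 for 6 of the 10 genes, lower for 0 and not called for 4, where 12.7% of all 16640 tested genes were called higher, 11.9% lower and 24.5% either way. The difference of the log2 fold changes was 2.17 (SE 0.19, adjusted p = 1.33e-08) for HSPA1B, 2.04 (SE 0.21, adjusted p = 1.08e-07) for HSPA1A and 1.47 (SE 0.16, adjusted p = 2.83e-07) for HSPA8. It was 0.44 (adjusted p = 2.69e-05) for HSPH1, 0.40 (adjusted p = 8.07e-06) for HSP90AA1 and 0.40 (adjusted p = 3.05e-05) for BAG3. For HSF1 the difference was -0.02 (95% interval -0.15 to 0.10), and for HSPB1 it was 0.13 (-0.02 to 0.29, adjusted p = 0.214). HSP90AB1 (0.12, 0.03 to 0.22, adjusted p = 0.0536) and HSPD1 (0.13, 0.03 to 0.23, adjusted p = 0.061) lay just outside the threshold and were called with DESeq2 (adjusted p = 0.00461 and 0.00542). Leaving out single libraries, HSP90AB1 was called in 12 of 16 cases and HSPD1 in 11 of 16, the exceptions for both being the omission of replicate 1 or 2 of MDA-MB-231 sgNTS and of replicate 1 or 3 of MDA-MB-231 sgYES1, and for HSPD1 also of replicate 4 of SUM159PT sgYES1. HSPB1 was called without MDA-MB-231 sgYES1 replicate 4 (0.23, adjusted p = 0.0174) or SUM159PT sgYES1 replicate 1 (0.21, adjusted p = 0.0398). The split of all genes called in the difference also moved between fits. Of the called genes, 51.7% were higher in the main fit, 58.7% with DESeq2 and 64.3% without SUM159PT sgNTS replicate 1. In the fits named as exceptions, 51.6% to 54.2% were higher. The part of this move in the calls of HSP90AB1, HSPD1 and HSPB1 was not tested. Without MDA-MB-231 sgNTS replicate 4 and SUM159PT sgNTS replicate 2 together, an alternative chosen after the data were seen, 8 of the 10 were called and the differences of HSPA1B, HSPA1A and HSPA8 were 2.50, 2.41 and 1.70.

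Between the controls of the lines, the largest fold changes among the 10 genes were again those of HSPA1A, HSPA1B and HSPA8. SUM159PT sgNTS had 4.31-fold less HSPA1A (adjusted p = 1.46e-07), 4.14-fold less HSPA1B (adjusted p = 8.47e-08) and 2.97-fold less HSPA8 (adjusted p = 1.26e-07) than MDA-MB-231 sgNTS. It also had 1.40-fold less BAG3, 1.19-fold less HSPH1 and 1.12-fold less HSF1, but 2.63-fold more HSPB1 (adjusted p = 3.76e-14), 1.42-fold more HSPD1 and 1.06-fold more HSP90AB1. HSP90AA1 was not called (log2 fold change -0.04, 95% interval -0.11 to 0.04). In all, 3 of the 10 were higher and 6 lower in SUM159PT sgNTS, where 40.4% of all 15567 tested genes were higher and 42.3% lower (82.7% called), so this count is near that of genes in general. The groups did not overlap in those 3 and 6 genes, against 38.4% of all genes with SUM159PT higher and 39.2% with it lower. Without SUM159PT sgNTS replicate 2 the log2 fold changes of HSPA1A, HSPA1B and HSPA8 were -2.50, -2.40 and -1.80, against -2.11, -2.05 and -1.57 with it. The call of HSP90AB1 was lost without MDA-MB-231 sgNTS replicate 2 (adjusted p = 0.051). This comparison uses the same control libraries as the guide effects in each line, so it is not independent of them.

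Levels were set side by side per length, as CPM per kilobase of the tables' gene length. That length ran from 1634 bases for HSPB1 to 8390 for HSPH1, and the length of the transcripts present was not measured. The order of genes, and the share and ratio given below, therefore depend on the length used. In SUM159PT sgYES1 the order was HSP90AB1 (1022), HSPB1 (703), HSP90AA1 (420.1), HSPA8 (386), HSPD1 (264), HSPA1B (57.3), BAG3 (53.7), HSF1 (33.4), HSPH1 (30.4) and HSPA1A (25.3 CPM per kb). In that group HSPA1B overlapped BAG3 and HSF1 overlapped HSPH1 across libraries. In SUM159PT sgNTS HSPA8 was 5th, at 156 CPM per kb, below HSPD1 (260.2), and HSPA1B (10.5) and HSPA1A (5.03) were last and overlapped. In MDA-MB-231 HSPA8 was 2nd after HSP90AB1, at 409 CPM per kb with sgYES1 and 457 with sgNTS. BAG3 overlapped HSPA1B, and HSPH1 overlapped HSPA1A, in MDA-MB-231 sgYES1, while no neighbours overlapped in MDA-MB-231 sgNTS.

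The share of inducible among counted HSP70 transcripts was above that of the controls in every sgYES1 library of both lines. HSPA1A and HSPA1B together made up 16.2% to 18.8% of the HSPA1A, HSPA1B and HSPA8 level per kilobase in SUM159PT sgYES1, against 7.71% to 10.4% in SUM159PT sgNTS. In MDA-MB-231 they made up 15.6% to 16.5% with sgYES1, against 12.1% to 13.0% with sgNTS. How reads that match both HSPA1A and HSPA1B were counted is unknown here. If they were left out, the levels per kilobase of both genes, their ranks and this share would all be too low. The share also rests on the tables' gene length, 2483 bases for HSPA1A, 2521 for HSPA1B and 4849 for HSPA8. If the HSPA8 transcripts present were shorter than 4849 bases, its level per kilobase would be too low and the share too high. HSP90AA1 stood at 0.369 ± 0.00514 times the per-kilobase level of HSP90AB1 in MDA-MB-231 sgYES1 and 0.459 ± 0.0104 times in MDA-MB-231 sgNTS (SD, n = 4 each), but at 0.411 ± 0.0124 times in SUM159PT sgYES1 and 0.422 ± 0.00916 times in SUM159PT sgNTS, where the groups overlapped. All 10 genes together took 0.995% to 1.04% of counts in SUM159PT sgYES1 and 0.777% to 0.888% in SUM159PT sgNTS. In MDA-MB-231 their share was 0.825% to 0.848% with sgYES1 and 0.880% to 0.894% with sgNTS, so it was higher with sgYES1 in one line and lower in the other.

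**Figure D3:**
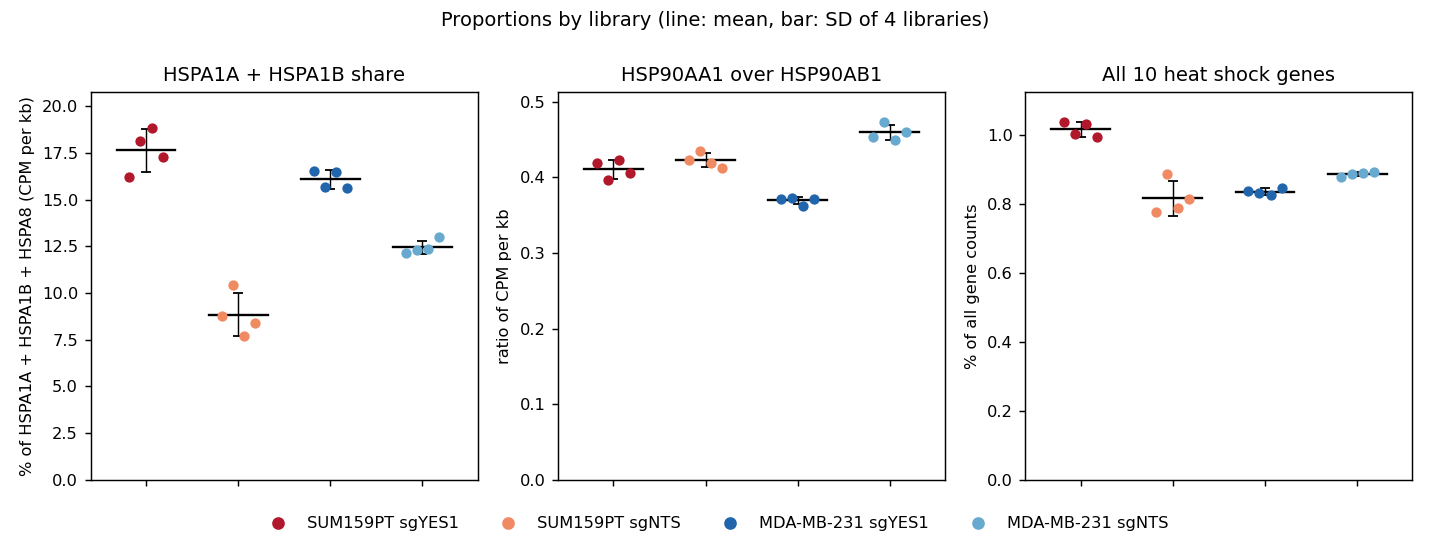
Proportions in each library (lines are means, bars SD of 4 libraries, axes start at 0): HSPA1A plus HSPA1B as a percent of HSPA1A, HSPA1B and HSPA8 in CPM per kb, HSP90AA1 over HSP90AB1 in CPM per kb, and all 10 genes as a percent of gene counts. The HSPA1 share is highest in SUM159PT sgYES1 (17.6% on average) and lowest in SUM159PT sgNTS (8.83%), and the HSP90 ratio is lowest in MDA-MB-231 sgYES1 (0.369).

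The genes most like HSPA1B and HSPA8 across the 16 libraries were sought among 9506 protein-coding genes with at least 5 CPM on average in each line. Likeness was the mean absolute difference in log2 CPM after each line was centred on its own mean, and it is a description, since the libraries share guide and line. For HSPA1B the closest were PTGES (0.288), which makes prostaglandin E2, the complement protease C1R (0.296), the helix-loop-helix inhibitor ID2 (0.315) and the TGF-beta pseudoreceptor BAMBI (0.323), against a median of 0.723 over all candidates. Their log2 fold changes in SUM159PT were 2.10, 1.90, 1.80 and 1.84, all called. In MDA-MB-231, where HSPA1B had 0.26, PTGES (0.54) and BAMBI (0.59) were called, and C1R (0.10, adjusted p = 0.427) and ID2 (-0.12, adjusted p = 0.142) were not. For HSPA8 the closest were ID2 (0.148), the membrane protein STOM (0.150), the Notch glycosyltransferase LFNG (0.153) and DISP2 (0.179), against a median of 0.405. Their log2 fold changes were 1.80, 1.74, 1.04 and 1.08 in SUM159PT, all called. In MDA-MB-231 STOM (-0.32) and LFNG (-0.24) were called lower, while ID2 and DISP2 (-0.01, adjusted p = 0.897) were not called.

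A further 74 genes of the chaperone system were followed in 8 lists that hold none of the 10. Counts over all lists leave out genes whose mean in a compared group lay under the limit of the filter on low counts (0.596 CPM in SUM159PT, 0.507 CPM in MDA-MB-231 and 0.542 CPM over both lines), since those were tested only through the group where they were high. Of the rest, 31 rose and 5 fell of 64 in SUM159PT (median log2 fold change 0.11), and 17 rose and 14 fell of 65 in MDA-MB-231 (median 0.0031). The shares of all genes given above are 19.6% higher and 19.7% lower in SUM159PT, and 20.8% and 22.1% in MDA-MB-231. The difference between lines was higher in SUM159PT for 23 of 62 genes and lower for 4, where 12.7% of all tested genes were called higher and 11.9% lower. Those 4 were ZFAND2A (-0.59, adjusted p = 6.4e-05), HSPA13 (-0.31, adjusted p = 0.0126), HYOU1 (-0.22, adjusted p = 0.00226) and HSPA9. HSPA9 had -0.14 (adjusted p = 0.0333), a call lost without MDA-MB-231 sgNTS replicate 4 (0.146) or SUM159PT sgNTS replicate 2 (0.172). The lists are described by these counts and medians only.

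The J-domain genes, whose products deliver unfolded proteins to HSP70, rose in SUM159PT in 6 of 7 tested cases, with 0 lower. Of all tested genes there, 19.6% rose and 19.7% fell. DNAJA1 averaged 215 CPM in SUM159PT sgYES1 and 118 in SUM159PT sgNTS (log2 fold change 0.88, adjusted p = 1.28e-10), and DNAJB1 185 and 110.0 CPM (0.75, adjusted p = 5.27e-11). DNAJB2 (0.46) and DNAJB4 (0.57) rose as well. In MDA-MB-231 2 of 8 rose and 1 fell, where 20.8% of all tested genes rose and 22.1% fell. DNAJB2 had a log2 fold change of 0.67 there and DNAJB4 of 0.24. DNAJB1 was lower (-0.09, adjusted p = 0.0273), a call lost without sgNTS replicate 4 (adjusted p = 0.0584). The interaction was called for DNAJA1 (0.82, adjusted p = 3.52e-09) and DNAJB1 (0.84, adjusted p = 1.29e-10), both larger in SUM159PT.

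Of the other HSP70 family genes, 4 rose and 2 fell of 7 in SUM159PT that were not under that limit in either group, and 2 rose and 1 fell of 9 in MDA-MB-231. Without MDA-MB-231 sgNTS replicate 4, 2 of those 9 rose and 0 fell. HSPA6, a strictly heat-inducible HSP70, averaged 17.99 CPM in MDA-MB-231 sgYES1 and 8.59 CPM in MDA-MB-231 sgNTS (log2 fold change 1.06, adjusted p = 8.62e-07). In SUM159PT it averaged 2.45 CPM with sgYES1 and, under the limit, 0.403 CPM with sgNTS. HSPA1L, a neighbour of HSPA1A whose transcripts hold 2.46% of the 50-base words of HSPA1A, rose in MDA-MB-231 (0.96). It averaged 0.941 CPM in SUM159PT sgYES1 and, again under the limit, 0.279 CPM in SUM159PT sgNTS. HSPA12B (1.22) and HSPA2 (1.55) rose and HSPA13 (-0.39) fell in SUM159PT. Most of these were low: HSPA12B, HSPA2 and HSPA1L stayed under 4 CPM in every group mean. In the organelle list HSPA5, the HSP70 of the endoplasmic reticulum, rose in SUM159PT (0.44) and MDA-MB-231 (0.26), and TRAP1, the HSP90 of mitochondria, fell in both (-0.19 and -0.17). HSP90B1 also fell in both (-0.10 and -0.11), though in SUM159PT not without sgNTS replicate 2 (adjusted p = 0.0834), and HYOU1 (0.14) and HSPA9 (0.13) rose in MDA-MB-231.

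Of 14 HSP90 co-chaperones, 6 rose and 1 fell in SUM159PT, and 2 rose and 3 fell in MDA-MB-231. Without SUM159PT sgNTS replicate 2, 5 rose and 1 fell in SUM159PT. Without MDA-MB-231 sgNTS replicate 4, 1 rose and 3 fell in MDA-MB-231, where 20.8% of all tested genes rose and 22.1% fell in the main fit. FKBP5, an immunophilin of steroid receptor complexes, fell in SUM159PT (-0.40, adjusted p = 1.26e-07) and MDA-MB-231 (-0.46, adjusted p = 3.67e-07). CHORDC1 rose in both (0.38 and 0.31). CDC37 (0.23), which brings kinases to HSP90, and STIP1 (0.23), which joins HSP70 to HSP90, rose in SUM159PT, and PPP5C (-0.19) and CACYBP (-0.15) fell in MDA-MB-231. The exchange factors and HSF partners were mostly not called, with 2 of 11 higher and 0 lower in SUM159PT (BAG1, 0.35, and HSPBP1, 0.19) and 2 higher (HSPBP1, 0.24, and STUB1, 0.16) and 2 lower (HSBP1, -0.23, and BAG2, -0.10) in MDA-MB-231. The call of BAG2 was lost without MDA-MB-231 sgNTS replicate 4 (adjusted p = 0.0677). In that fit 2 of the 11 were still called lower, as another gene of the list gained a call.

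Of the chaperonins, 5 of 10 rose and 0 fell in SUM159PT, among them TCP1 (0.19), CCT3 (0.19), HSPE1 (0.22) and CCT2 (0.13). In MDA-MB-231 CCT2 (-0.34), CCT5 (-0.19) and CCT7 (-0.11) fell, 3 of the 9 that were not under the limit, with 0 higher. CCT6B averaged 0.934 CPM there with sgYES1 and, under the limit, 0.288 CPM with sgNTS. CCT2 differed between the lines by 0.46 (adjusted p = 4.59e-07). Of the 9 small heat shock genes, 3 were tested in SUM159PT and not under the limit in either group, and 2 of them rose: CRYAB, or alpha-B crystallin, at 5.34 CPM with sgYES1 and 1.33 CPM with sgNTS (2.03, adjusted p = 3.47e-08), and HSPB8, the partner of BAG3 (0.50). HSPB7 averaged 0.944 CPM with sgYES1 and, under the limit, 0.421 CPM with sgNTS. In MDA-MB-231 HSPB8 rose (0.59) and HSPB11 fell (-0.25), the only 2 tested. Of 7 other heat-induced genes, 5 rose in each line, with 0 lower in SUM159PT and 1, UBB (-0.13), lower in MDA-MB-231. DEDD2 (0.42 and 0.51) was among those that rose in SUM159PT and MDA-MB-231, as were IER5 (0.52 and 0.20) and ZFAND2A (0.20 and 0.77), and MRPL18 (0.25) rose in SUM159PT. The SUM159PT call of ZFAND2A was lost without sgNTS replicate 2 (adjusted p = 0.0592).

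**Figure D4:**
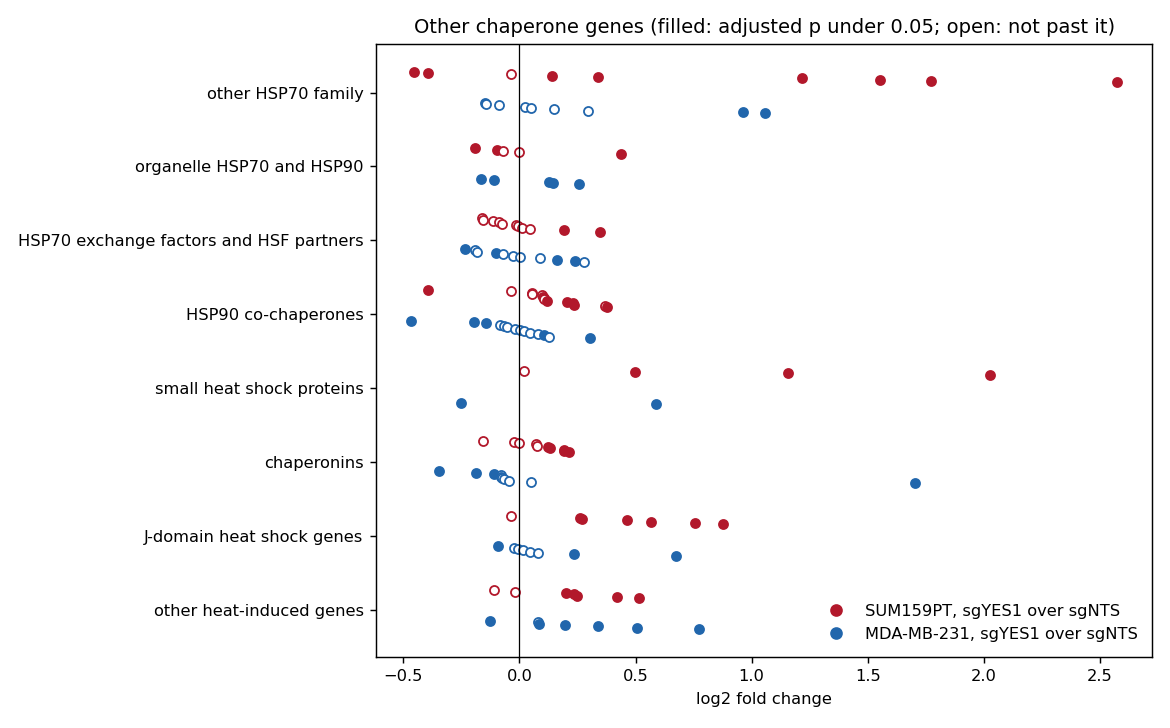
Log2 fold change of sgYES1 over sgNTS for each tested gene of the 8 lists (rows), in SUM159PT (red) and MDA-MB-231 (blue); filled points passed an adjusted p of 0.05 and open points did not. In the J-domain row, 6 of 7 SUM159PT points are filled and above 0, against 2 of 8 in MDA-MB-231. Of all tested genes, 19.6% were called higher in SUM159PT and 20.8% in MDA-MB-231. The points of HSPA6, HSPA1L and HSPB7 in SUM159PT and CCT6B in MDA-MB-231 are of genes under the filter's limit in sgNTS.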

How the data were processed

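Poly-A RNA of 16 samples was sequenced. The authors deposited raw gene counts (whole numbers, not normalized), 1 table per line; the submitters' processing notes name HISAT2 2.0.5, featureCounts 1.5.0-p3 and hg38. The settings for strand and for reads that match several places are not given in the sources used here. Gene IDs, starts and ends matched GENCODE 29.

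Tests used edgeR 4.0.16 (R 4.3.3; quasi-likelihood F; TMM scaling; filterByExpr, count 10, total 15), two-sided, adjusted by Benjamini-Hochberg over all tested genes and called under 0.05. Within a line only its 8 libraries were fitted, the difference between lines as the interaction over 16, and the controls of the lines on 8. Printed CPM use TMM factors over all 16 libraries. The code was tested on simulated data. Alternatives were other scalings, DESeq2 1.42.0, no filter on low counts, HSPA1A and HSPA1B summed, a replicate block, a joint fit and leaving out each library; log2 CPM used a prior count of 2.

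The 10 genes and all lists were chosen with earlier results of these data known. All 10 are named; of each list, up to 4 tested genes with the smallest p in each line; for HSPA1B and HSPA8, the 4 most alike genes. Outside that rule, HSP90B1 and IER5 in MDA-MB-231, HSPA1L and ZFAND2A in SUM159PT, the limit on low genes, the tests between lines of DNAJA1, DNAJB1 and CCT2, and the group means quoted for low genes were picked for the text after their values were seen. So were the tests between lines of ZFAND2A, HSPA13, HYOU1 and HSPA9. The values of 1 listed gene are not reported here. HSPA14 names 2 overlapping gene IDs, of which 1 was used.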

Additional observations from a re-analysis of the deposited data

Results flagged for a closer look

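Among 40 groups of 4 libraries (10 genes in 4 groups), 3 held a library far from the others by Dixon's test at the 95% level, which flags about 1 group in 20 by chance. HSPH1 stood at 242 CPM in MDA-MB-231 sgNTS replicate 4, against 225 to 228 CPM in the other 3. HSP90AA1 stood at 2201 CPM in MDA-MB-231 sgNTS replicate 2, against 2118 to 2132 CPM. HSPD1 stood at 695 CPM in MDA-MB-231 sgYES1 replicate 3, against 716 to 719 CPM. SUM159PT sgNTS replicate 2, the highest of its group in 8 of the 10 genes, was not far enough from the others to be picked out by that test.

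The guide effect on 6 genes differed between the lines by the interaction test. The difference of log2 fold changes, SUM159PT minus MDA-MB-231, was 2.17 for HSPA1B, 2.04 for HSPA1A, 1.47 for HSPA8, 0.44 for HSPH1, 0.40 for HSP90AA1 and 0.40 for BAG3. Within the lines, HSPA8, HSPA1A, HSPA1B, HSPH1 and BAG3 were called higher in SUM159PT. In MDA-MB-231 HSP90AA1 was called lower under every alternative run, while the calls of HSPA8 and BAG3 (lower) and of HSPA1A and HSPA1B (higher) were all lost with 1 fit over 16 libraries (adjusted p = 0.272, 0.0817, 0.0969 and 0.109).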

How the results depend on the processing

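The rises of HSPA1A, HSPA1B, HSPA8, HSPH1, HSPB1 and BAG3 in SUM159PT, the fall of HSP90AA1 in MDA-MB-231 and the 6 called differences between lines kept direction and call under every alternative run. In MDA-MB-231 the members called lower numbered 2 with library totals as the only scaling, and with all 16 libraries in 1 fit 0 were called higher and 2 lower. Summing HSPA1A and HSPA1B left 1 called higher there, 6 in SUM159PT and 5 in the difference, since both form 1 feature. The scaling by library totals also moved the split of all called genes in MDA-MB-231 to 3956 higher and 2661 lower, against 3205 and 3402 with TMM. Leaving out 1 library at a time, 2 members were called higher and 3 to 4 lower in MDA-MB-231, 6 to 8 higher and 0 lower in SUM159PT, 6 to 9 higher and 0 lower in the difference, and 2 to 3 higher and 6 lower between controls. Values near 0 changed sign without passing the test: HSF1 in MDA-MB-231 was 0.00052796 with DESeq2 size factors, 0.0452 with library totals, 0.000635 with DESeq2 and 0.0031 in the joint fit, and -0.029 to 0.0262 leaving out libraries. HSF1 in SUM159PT was 0.0116 with library totals and -0.0446 to 0.019 leaving out libraries, and its difference between lines was 0.00122 with DESeq2 size factors, 0.00105 with DESeq2 and -0.0522 to 0.0397 leaving out libraries. HSP90AB1 in MDA-MB-231 was 0.0178 with library totals, and HSPB1 there was -0.0147 to 0.0826 leaving out libraries. HSP90AB1 was not called between controls when no filter was applied (adjusted p = 0.43). The cause of these changes was not tested. With the replicate block 5901 genes were called in MDA-MB-231 (6607 without it), 5886 in SUM159PT (5701), 3817 in the difference (4085) and 12753 between controls (12878), and BAG3 in MDA-MB-231 was the only member to lose its call (adjusted p = 0.0585). Deviations of same-numbered samples had correlations from -0.11 to 0.05, against -0.08 to 0.13 for samples of different number. With only 4 libraries in a group such values cannot exclude pairing, so whether the numbers pair the samples is not known. Depth was ample for all 10 genes, the lowest count being 113.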
